A study of Homo sapiens with 6 samples.

Results

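The 33 genes described here encode the COMPASS complexes, their partner menin, and other enzymes that write or erase methyl groups on lysine 4 of histone H3. They were chosen by name, as COMPASS subunits and as H3K4 methyltransferases and demethylases with close relatives, from 61279 genes to which the transcripts of the files were assigned. RNA-seq was performed on cells labelled T47D, a luminal, hormone receptor-positive breast cancer cell line. Marker genes in the libraries labelled DMSO go against that name, as given below. The genotype label reads WT, although the line is known to carry an activating PIK3CA mutation. The 3 control libraries are labelled DMSO, the solvent, and the 3 treated libraries are labelled MI-503, a small molecule that occupies the pocket of menin to which MLL1 binds, at 4 µmol/L. Treatment lasted 24 hours with either label. By the study's account the samples of a label are independent experiments, all in a single cell line.

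COMPASS complexes are assembled around a catalytic subunit that carries a SET domain, the fold that transfers methyl groups to lysine. MLL1 and MLL2 (KMT2A and KMT2B) act mainly at promoters with menin, MLL3 and MLL4 (KMT2C and KMT2D) add a single methyl group at enhancers, and SETD1A and SETD1B provide most of the trimethylation at active promoters. WDR5, RBBP5, ASH2L and DPY30 form the core that all of these complexes share and that stimulates the catalytic subunit. KDM5 and KDM1 enzymes remove the same marks, and KDM6 enzymes remove methyl groups from lysine 27 of the same histone.

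The labels were checked against marker genes before any comparison. All 14 luminal breast markers tested were higher with the MI-503 label, against 31.7% of the 16442 genes tested. Their summed level was 427 to 475 CPM (counts scaled to library size with edgeR's TMM factors) with the DMSO label and 11515 to 14458 CPM with the MI-503 label. ESR1, which encodes the estrogen receptor, was at 0, 0.194 and 0 CPM with the DMSO label and at 209.5, 240.3 and 295.5 CPM with the MI-503 label. All 13 prostate markers were lower, against 31.2% of all genes tested, with summed levels of 6851 to 8328 CPM and 149 to 159 CPM. KLK3, the prostate-specific antigen gene, reached 3762, 3687 and 3673 CPM with the DMSO label and had no read in any library labelled MI-503. PGR and GATA3, which with ESR1 define hormone receptor-positive luminal cells, were likewise at most 0.533 and 0.581 CPM with the DMSO label, while XBP1 (145.7 to 271 CPM), MLPH (105 to 177.4 CPM), CA12, AGR2 and KRT19 were expressed there as well, at lower levels than with the MI-503 label. An effect of MI-503 and a difference in the cells behind the labels cannot be told apart in any comparison below. The words "higher", "lower", "rise", "rose", "fall" and "fell" refer only to libraries with the MI-503 label set against those of the DMSO label. Of 4 mesenchymal markers tested of 8, 1 was higher and 2 were lower, and the blood cell markers PTPRC and CD3E were at 0 throughout. Total reads ranged from 17404736 to 22168525 per library.

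The promoters of these genes are rich in CG dinucleotides, which matters to this family since the CXXC domains of MLL1, MLL2 and CXXC1 bind CG when it is unmethylated. RefSeq promoter windows (GRCh38.p14), which run from 250 bases before to 50 bases after the transcription start, were found for 26 of the 33 genes, without SETD1B, ASH2L, DPY30, HCFC1, PAXIP1, NCOA6 and DOT1L. The letters CG, which read the same on both strands, occurred a median of 30.5 times per window with a range of 18 to 56. All 26 windows held at least 15, as did 49% of 34961 windows over all genes, where the median was 14. The 250 bases before the start are shown, CG in capitals, for the partners that MI-503 separates and for the members with the largest difference (SMYD2) and the smallest spread among the DMSO replicates (WDR82).
KMT2A, chr11:118436242-118436491, plus strand: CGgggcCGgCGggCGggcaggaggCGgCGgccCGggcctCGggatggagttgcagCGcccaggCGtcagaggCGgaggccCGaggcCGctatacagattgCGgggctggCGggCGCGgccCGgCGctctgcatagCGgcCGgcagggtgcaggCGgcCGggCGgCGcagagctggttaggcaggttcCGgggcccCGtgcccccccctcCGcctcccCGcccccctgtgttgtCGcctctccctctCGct
MEN1, chr11:64810552-64810801, minus strand: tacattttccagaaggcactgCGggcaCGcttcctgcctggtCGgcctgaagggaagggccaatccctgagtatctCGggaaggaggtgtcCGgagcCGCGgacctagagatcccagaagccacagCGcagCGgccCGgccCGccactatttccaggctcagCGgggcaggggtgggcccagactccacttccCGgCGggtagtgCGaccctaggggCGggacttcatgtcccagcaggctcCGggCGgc
SMYD2, chr1:214280909-214281158, plus strand: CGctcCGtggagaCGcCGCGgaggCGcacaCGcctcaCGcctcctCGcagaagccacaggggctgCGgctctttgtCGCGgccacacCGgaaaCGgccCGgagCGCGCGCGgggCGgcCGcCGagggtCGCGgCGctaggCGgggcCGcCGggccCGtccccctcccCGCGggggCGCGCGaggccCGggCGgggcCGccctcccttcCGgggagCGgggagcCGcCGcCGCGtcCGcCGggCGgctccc
WDR82, chr3:52278650-52278899, minus strand: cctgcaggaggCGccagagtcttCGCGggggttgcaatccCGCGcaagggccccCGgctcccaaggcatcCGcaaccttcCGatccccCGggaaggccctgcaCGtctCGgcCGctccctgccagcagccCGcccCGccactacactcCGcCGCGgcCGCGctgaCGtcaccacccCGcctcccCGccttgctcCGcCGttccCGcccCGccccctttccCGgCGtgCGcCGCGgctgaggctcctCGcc
The stretches shown hold 31 CG dinucleotides for KMT2A, 18 for MEN1, 46 for SMYD2 and 32 for WDR82.

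All 33 genes were measured in every library, with between 69 reads (SMYD2) and 7542 reads (SETD7) behind a value, and all passed edgeR's filter on low counts. At an adjusted p under 0.05 (edgeR's quasi-likelihood test, Benjamini-Hochberg over all genes tested), 15 of the 33 members (45.5%) differed between the labels, 9 higher and 6 lower, while 62.9% of all genes tested and 62.5% of the 8531 genes within the members' range of mean CPM did so. The members' median log2 fold change was −0.05, and its median size was 0.57 (quartiles 0.27 and 0.95) compared with 0.90 over all genes and 0.68 over genes of the same range of level. Only SMYD2 was higher with a log2 fold change over 2, the fold the study required, where 12.6% of all genes were. The edgeR test counted 0 members lower by that fold, whether the p was adjusted or not, and DESeq2 also counted 0, compared with 11.7% of all genes. By CPM alone, the libraries of the labels did not overlap for 8 members that were higher (34.7% of all genes) and 7 that were lower (34.0% of all genes). In these bulk samples, fewer cells of a type and less RNA per cell cannot be told apart.

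**Figure D1:**
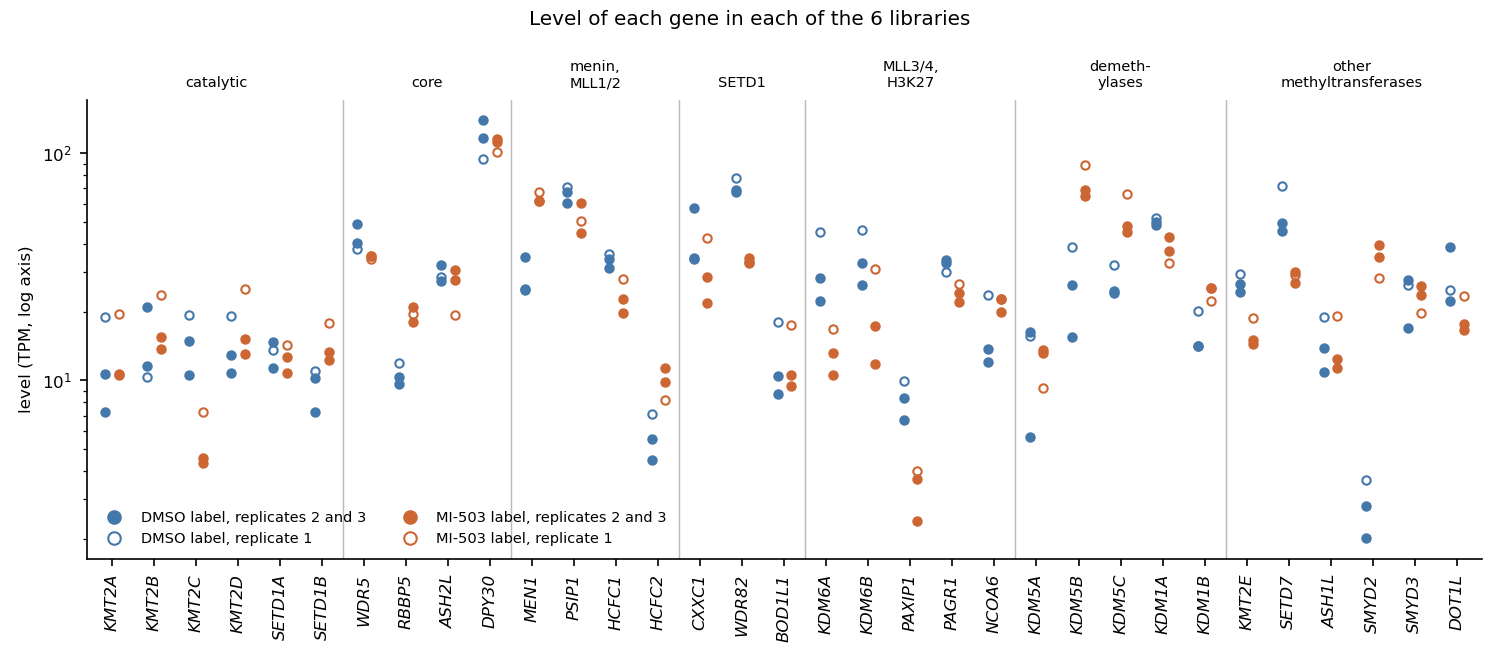
Level of each of the 33 genes in each library, in TPM (a level corrected for transcript length, scaled to the same total in each library) on a log axis, grouped by role; blue points are libraries labelled DMSO and orange points those labelled MI-503, with replicate 1 drawn open. SMYD2 stands out with 2.01 to 3.64 TPM against 28.3 to 39.5 TPM, while the points of most catalytic and core subunits overlap.

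**Figure D2:**
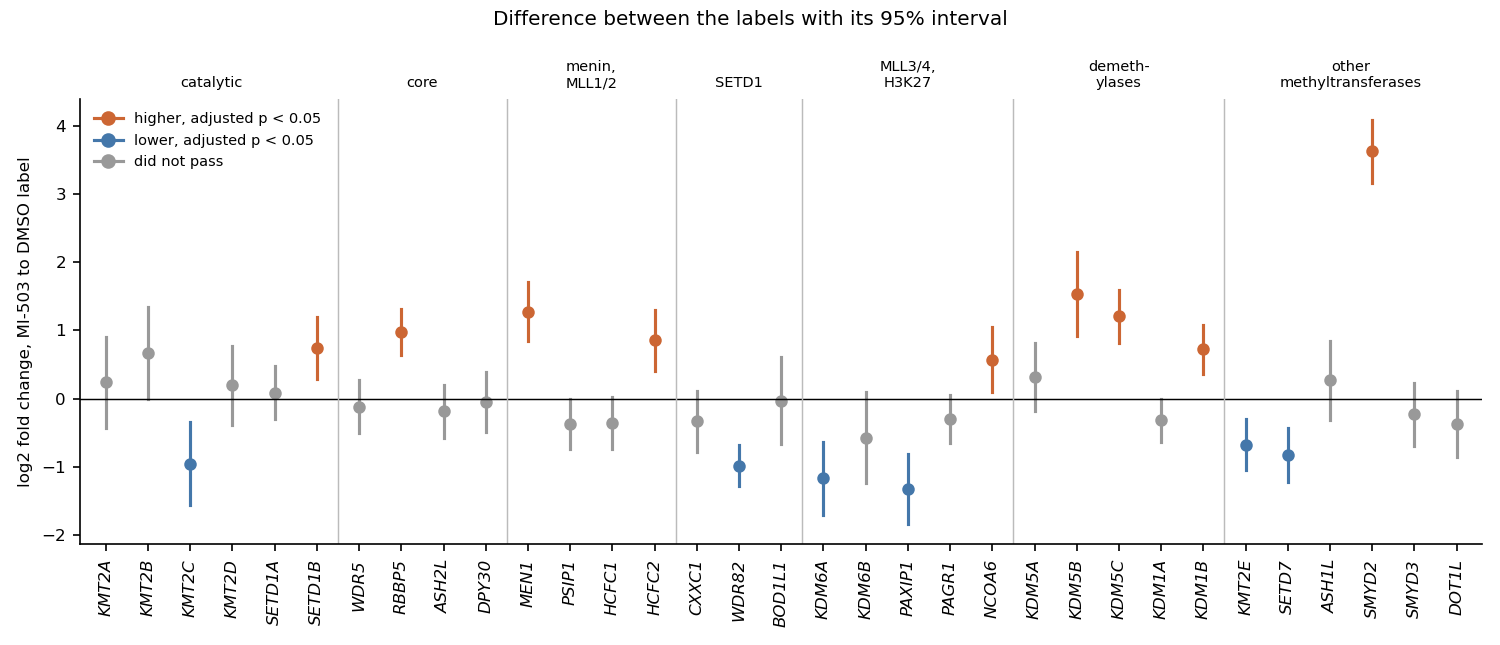
Log2 fold change of each gene, MI-503 label against DMSO label, with a 95% interval computed from the edgeR fit and not adjusted for the number of genes tested. Orange and blue mark an adjusted p under 0.05. Of the 33 genes 9 lie above 0, 6 lie below 0 and 18 did not pass, and SMYD2 at 3.62 is the only gene beyond 2.

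Of the 6 catalytic subunits, SETD1B was higher, KMT2C was lower and 4 did not pass the test. KMT2A (ENSG00000118058, chr11:118436456-118526832), which encodes MLL1, was at 125.9, 76.2 and 60.4 CPM with the DMSO label and at 142.7, 84.8 and 81.6 CPM with the MI-503 label. The labels overlapped, and within each label replicate 1 was the highest. Its log2 fold change was 0.24 (standard error, SE, 0.30), with a 95% interval of −0.43 to 0.90 and an adjusted p of 0.511 (edgeR). A level with the MI-503 label of 0.744 to 1.87 times that with the DMSO label lay within this interval. KMT2B, which encodes MLL2, was at 50.7, 41.3 and 89.4 CPM and at 129.6, 78.6 and 80.5 CPM. Replicate 3 of the DMSO label lay among the MI-503 values. The log2 fold change of KMT2B was 0.67 (SE 0.30, adjusted p = 0.0747 by edgeR), and without that library it was 1.07 (adjusted p = 0.00441).

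KMT2C, which encodes the enhancer methyltransferase MLL3, was at 143.1, 85.6 and 84.6 CPM with the DMSO label and at 73.9, 45.6 and 42.4 CPM with the MI-503 label. Every MI-503 library was below every DMSO library, although replicate 1 of the MI-503 label came close to the lower DMSO values. The log2 fold change was −0.95 (SE 0.27, adjusted p = 0.0112 by edgeR), a 1.93-fold lower level, and it was −0.66 (adjusted p = 0.0375) without replicate 1 of the DMSO label. Long stretches of KMT2C have near-identical copies elsewhere in the genome, so the assignment of its reads is uncertain. Its partner in kind KMT2D, which encodes MLL4, ranged from 141.8 to 226.4 CPM and from 148.9 to 267 CPM, and SETD1A ranged from 48.8 to 63.9 CPM and from 52 to 68.3 CPM. Neither passed the test, with log2 fold changes of 0.19 (95% interval −0.38 to 0.77) and 0.09 (95% interval −0.30 to 0.47). SETD1B was at 69.5, 50.6 and 72.5 CPM and at 133.7, 94.8 and 92.1 CPM. The labels did not overlap, and SETD1B rose by a log2 fold change of 0.74 (SE 0.20, adjusted p = 0.00974 by edgeR).

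Levels corrected for length allow the catalytic subunits to be set beside each other within a library. Their summed level was 78.6 ± 15.4 TPM with the DMSO label and 81.7 ± 23.1 TPM with the MI-503 label (SD, n = 3 each), and no subunit held more than 26.0% of it in any library. KMT2C made up 20.9%, 17.1% and 18.4% of the sum in the libraries labelled DMSO and 6.67%, 6.70% and 6.28% in those labelled MI-503. SETD1B made up 11.8%, 11.7% and 12.6%, then 16.5%, 19.6% and 17.9%. These shares did not overlap between the labels, whereas the mean shares of KMT2A (15.6% and 16.4%), KMT2B (18.6% and 21.6%), KMT2D (18.0% and 21.6%) and SETD1A (17.0% and 15.8%) lay closer together. A share can change through any of the 6 genes, and the TPM of a gene also depends on which of its transcripts salmon assigned the reads to.

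**Figure D3:**
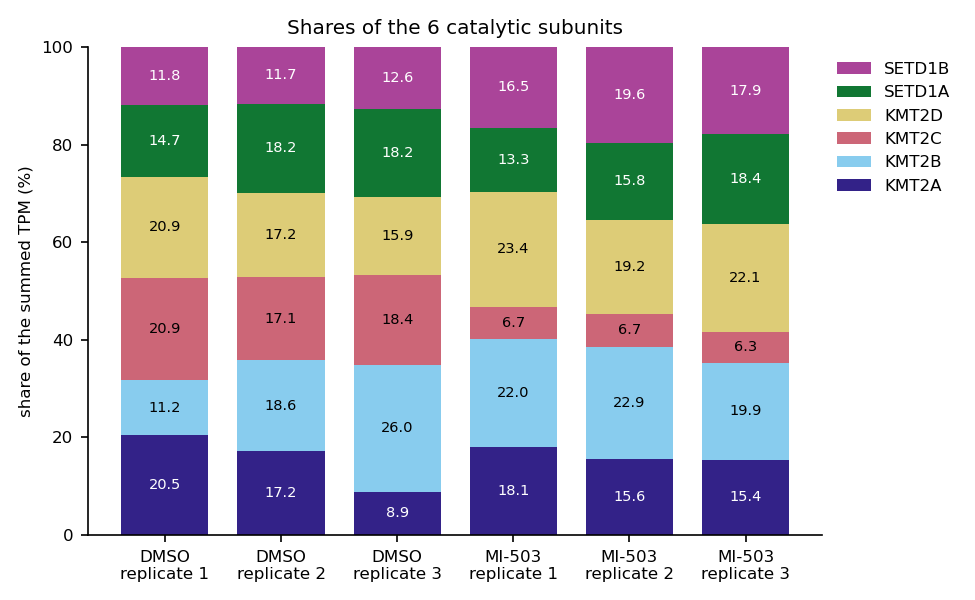
Share of each catalytic subunit in the summed TPM of the 6 subunits, as stacked bars from 0 to 100% for each library. The share of KMT2C lies between 17.1% and 20.9% in the libraries labelled DMSO and between 6.28% and 6.70% in those labelled MI-503.

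The balance of paired genes was examined as the ratio of their TPM within each library, since such a ratio does not depend on scaling between libraries. With 3 libraries against 3, the exact two-sided permutation test cannot give a p under 0.1, and over the 10 ratios tested the lowest Benjamini-Hochberg adjusted value was 0.167, so none of them could pass. KMT2C per KMT2D was 1.00, 0.988 and 1.15 with the DMSO label and 0.285, 0.348 and 0.284 with the MI-503 label. The enhancer pair was thus near equal with the DMSO label, and KMT2D held the larger part with the MI-503 label. The log2 difference was −1.78 (exact permutation p = 0.1), and −1.14 when estimated counts were used in place of TPM. SETD1A per SETD1B was 1.24, 1.56 and 1.44 and then 0.803, 0.808 and 1.03, without overlap (log2 difference −0.69, exact permutation p = 0.1). KMT2A per KMT2B varied from 0.343 to 1.83 among the DMSO libraries alone and gave no difference that could be resolved (log2 difference −0.14, exact permutation p = 0.8).

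Of the genes for menin and for partners in the MLL1 and MLL2 complexes, MEN1 and HCFC2 were higher and PSIP1 and HCFC1 did not pass. MEN1 (ENSG00000133895, chr11:64803510-64811294, minus strand) encodes menin, the scaffold that tethers MLL1 and MLL2 to chromatin and that MI-503 binds. It was at 48.2, 52.5 and 75.3 CPM with the DMSO label and at 155.9, 134.3 and 135.3 CPM with the MI-503 label. All MI-503 libraries lay above all DMSO libraries, by more than the spread within either label. The rise was 2.42-fold (95% interval 1.80 to 3.25, log2 fold change 1.27, SE 0.19, adjusted p = 0.000265 by edgeR), and its log2 value stayed between 1.15 and 1.49 over all 15 alternative settings.

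Relative to its binding partners, MEN1 TPM divided by the sum of KMT2A and KMT2B was 0.861, 1.12 and 1.23 with the DMSO label and 1.56, 2.37 and 2.53 with the MI-503 label. The ranges did not overlap, and the log2 difference was 0.99 (exact permutation p = 0.1, adjusted 0.167). Against KMT2A alone the ratio was 1.33, 2.34 and 4.83 and then 3.46, 5.84 and 5.79, with DMSO replicate 3 above MI-503 replicate 1 (exact permutation p = 0.2).

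PSIP1 encodes LEDGF, the chromatin reader that joins the menin and MLL1 complex. It was at 113.3, 112.1 and 96 CPM and at 75.3, 98.9 and 74 CPM, and replicate 2 of the MI-503 label overlapped the DMSO values. Its log2 fold change of −0.37 did not pass (adjusted p = 0.0738 by edgeR), and without that library the log2 fold change was −0.49 (adjusted p = 0.0458). It was −0.45 (adjusted p = 0.0485) without DMSO replicate 3. HCFC1 and HCFC2 encode host cell factors that bind both MLL1 and SETD1 complexes. HCFC1 was at 221.9, 180.2 and 218.5 CPM and at 190.8, 133.6 and 159.4 CPM and did not pass (log2 fold change −0.36, adjusted p = 0.0947), while HCFC2 was at 18.3, 12.8 and 16.2 CPM and at 25.6, 32.1 and 28.2 CPM. HCFC2 rose without overlap by a log2 fold change of 0.86 (SE 0.20, adjusted p = 0.00380 by edgeR). The TPM ratio of HCFC1 to HCFC2 was 5.06, 7.01 and 6.21 and then 3.40, 1.75 and 2.33 (exact permutation p = 0.1), and HCFC1 had the higher TPM of the pair in every library.

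The files hold single transcripts, so the target pair could be read at that level. Assignment of reads between transcripts of a gene is an estimate for which the files give no error. Of 51033 transcripts tested, 13.9% were higher and 14.1% lower. For KMT2A, 5 of 23 annotated transcripts could be tested and none passed at an adjusted p under 0.05 (edgeR). The reference transcript KMT2A-213, 16600 bases long and the one that encodes full-length MLL1, was at 7.49, 4.64 and 3.72 TPM with the DMSO label and at 5.67, 4.25 and 3.60 TPM with the MI-503 label. It was the most abundant KMT2A transcript on average in both sets, with 44.7% and 34.3% of the gene's TPM. A transcript with a retained intron, KMT2A-205, came next at 3.20 ± 1.16 and 3.34 ± 1.53 TPM (SD, n = 3 each). The short coding transcript KMT2A-208 of 2572 bases was at 1.23, 1.01 and 0.868 TPM and at 0.233, 0.148 and 0.496 TPM. These values did not overlap, but the test across transcripts was not passed (log2 fold change −1.87, SE 0.64, adjusted p = 0.0729 by edgeR).

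Of the 18 annotated transcripts of MEN1, 11 were tested, 3 were higher and none was lower. The reference transcript MEN1-213 was at 8.15, 7.65 and 5.67 TPM with the DMSO label and at 10.3, 17.1 and 15.2 TPM with the MI-503 label. It rose without overlap by a log2 fold change of 0.99 (adjusted p = 0.0352 by edgeR). The coding transcript MEN1-218 was at 0.676, 0.628 and 0.638 TPM and at 8.28, 4.20 and 3.22 TPM (log2 fold change 2.99, adjusted p = 0.00481). MEN1-207, annotated as a target of nonsense-mediated decay, rose as well (log2 fold change 1.38, adjusted p = 0.0402). The whole gene was at 28.4 TPM on average with the DMSO label and at 63.8 TPM with the MI-503 label. Most of that level, and most of the rise, thus lay outside the reference transcript.

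**Figure D4:**
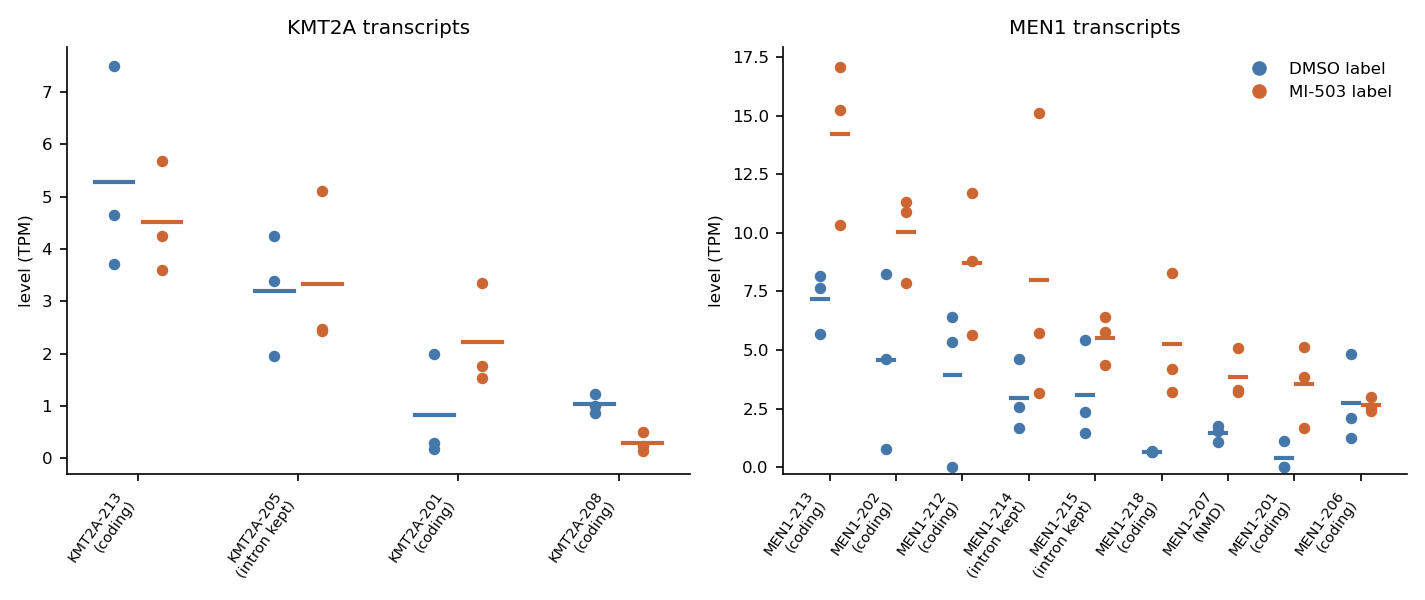
TPM of the transcripts of KMT2A (left) and MEN1 (right) with a mean of at least 1 TPM with either label. Each library is 1 point and the mean of 3 is a bar, blue for the DMSO label and orange for the MI-503 label. The class of each transcript is given in brackets. KMT2A-213 lies at 3.72 to 7.49 and 3.60 to 5.67 TPM, whereas MEN1-213 lies at 5.67 to 8.15 and 10.3 to 17.1 TPM.

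The core shared by all complexes differed little apart from RBBP5. RBBP5, which with ASH2L contacts the SET domain, was at 34.8, 30.0 and 33.0 CPM with the DMSO label and at 64.9, 68.5 and 58.8 CPM with the MI-503 label. It rose 1.97-fold without overlap (log2 fold change 0.98, SE 0.15, adjusted p = 0.000341 by edgeR). WDR5, the subunit that reads the histone tail and docks the catalytic subunit, ranged from 73.4 to 112.2 CPM and from 82.6 to 85.2 CPM (log2 fold change −0.12, 95% interval −0.51 to 0.27). ASH2L (51.1 to 62.7 and 40.5 to 54.1 CPM) and DPY30 (26.6 to 41.8 and 31.1 to 36.9 CPM) did not pass either, with intervals of −0.57 to 0.20 and −0.49 to 0.39. Per length, DPY30 was the most abundant of all 33 genes in every library, with 117 ± 22.5 and 109.7 ± 7.63 TPM (SD, n = 3 each). RBBP5 was the least abundant core subunit in every library but MI-503 replicate 1, where ASH2L was level with it at 19.5 TPM.

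Among the SETD1-specific subunits, WDR82 was lower and CXXC1 and BOD1L1 did not pass the test. WDR82 (chr3:52254434-52288020, minus strand) ties SETD1 complexes to RNA polymerase II at starting genes. It was at 226.4, 216.3 and 217.9 CPM with the DMSO label and at 110.4, 109.2 and 114.6 CPM with the MI-503 label. The replicates were nearly equal within each label, and the level fell 1.98-fold (log2 fold change −0.98, SE 0.13, adjusted p = 0.000135 by edgeR). Its reference transcript WDR82-201 carried 98.8% and 97.8% of the gene's TPM and was lower as well (log2 fold change −1.11, adjusted p = 0.00178). CXXC1, the CpG-binding subunit, was at 37.7, 39.7 and 49.4 CPM and at 41.9, 29.6 and 29.2 CPM, which overlap (log2 fold change −0.33, adjusted p = 0.168). When protein-coding transcripts alone were counted, its log2 fold change was −0.65 (adjusted p = 0.00770). BOD1L1, which works with SETD1A at stalled replication forks, ranged from 44.7 to 89.2 and from 48.1 to 85.7 CPM (log2 fold change −0.03).

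The MLL3 and MLL4 complexes hold their own subunits, which were grouped here with the H3K27 demethylase KDM6B. In this group KDM6A and PAXIP1 were lower, NCOA6 was higher and 2 genes did not pass. KDM6A encodes UTX, the H3K27 demethylase of these complexes. Its level was 165.4, 113.4 and 91.3 CPM with the DMSO label and 67.0, 44.1 and 53.3 CPM with the MI-503 label, a fall of 2.25-fold without overlap (log2 fold change −1.17, SE 0.24, adjusted p = 0.00184 by edgeR). PAXIP1 (chr7:154943687-155003124, minus strand), which encodes the adaptor PTIP, was at 23.6, 19.0 and 24.8 CPM and at 10.5, 9.52 and 6.77 CPM. It was the member with the largest fall at 2.51-fold (95% interval of the log2 fold change −1.84 to −0.82, adjusted p = 0.000614 by edgeR). Over protein-coding transcripts alone the log2 fold change of PAXIP1 was −2.10 (adjusted p = 0.0421). Its nonsense-mediated decay transcript PAXIP1-203 held 1.36 and 1.33 TPM on average while the reference transcript PAXIP1-201 held 5.48 and 1.17 TPM.

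NCOA6, a coactivator of nuclear receptors including the estrogen receptor, was at 105.5, 65.9 and 61.6 CPM and at 121.4, 120.7 and 103.4 CPM. It passed the test (log2 fold change 0.57, SE 0.21, adjusted p = 0.0395 by edgeR), but replicate 1 of the DMSO label overlapped the other set and the call was lost without DMSO replicate 2 (log2 fold change 0.46, adjusted p = 0.148), DMSO replicate 3 (0.43, 0.109), MI-503 replicate 1 (0.58, 0.0614) or MI-503 replicate 2 (0.57, 0.0798). PAGR1, the partner of PTIP, was at 79.8, 96.4 and 100.7 CPM and at 82.6, 66.6 and 75.4 CPM and did not pass (log2 fold change −0.30, adjusted p = 0.122). Without DMSO replicate 1 it passed (log2 fold change −0.40, adjusted p = 0.0490). KDM6B, the second H3K27 demethylase, was at 197, 135.4 and 138.5 CPM and at 160.4, 91.1 and 65.5 CPM. Replicate 1 was the highest of each label, and the log2 fold change of −0.57 (adjusted p = 0.122) became −0.95 (adjusted p = 0.00684) without MI-503 replicate 1. The KDM6A to KDM6B ratio in TPM overlapped between the labels (log2 difference −0.32, exact permutation p = 0.5).

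Of the 5 H3K4 demethylases 3 were higher, none was lower and 2 did not pass, beside 31.7% of all genes higher and 31.2% lower. KDM5B, which erases trimethylation and is known as a luminal-lineage gene in breast cancer, was at 147.6, 104.8 and 63.6 CPM with the DMSO label and at 362.1, 281 and 274 CPM with the MI-503 label. It rose 2.90-fold (95% interval 1.89 to 4.45, adjusted p = 0.000801 by edgeR), with the widest spread of the 33 genes among the DMSO libraries (SD of log2 CPM 0.61). KDM5C, its close relative, was at 84.8, 86.5 and 105 CPM and at 252.9, 179.1 and 204.9 CPM, a rise of 2.31-fold (adjusted p = 0.000211 by edgeR). KDM5A was at 65.5, 50.4 and 33.9 CPM and at 62.1, 60.0 and 64.1 CPM and did not pass (log2 fold change 0.31, adjusted p = 0.244). Without DMSO replicate 1, whose KDM5A value lay above all others, the log2 fold change was 0.56 (adjusted p = 0.0334).

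KDM1A encodes LSD1, the flavin-dependent demethylase, and KDM1B encodes LSD2. KDM1A was at 99.2, 108 and 106.8 CPM and at 76.1, 84.9 and 90.4 CPM, without overlap but with an adjusted p of 0.0722 (log2 fold change −0.32, edgeR). KDM1B was at 57.1, 43.3 and 45.1 CPM and at 74.5, 83.3 and 81.9 CPM and rose by a log2 fold change of 0.72 (SE 0.16, adjusted p = 0.00317 by edgeR). The TPM of KDM1A was 2.57, 3.52 and 3.43 times that of KDM1B with the DMSO label and 1.47, 1.46 and 1.68 times with the MI-503 label (exact permutation p = 0.1). The summed TPM of the 5 demethylases was 132.8 ± 25.2 with the DMSO label and 201.4 ± 16.2 with the MI-503 label (SD, n = 3 each), beside 78.6 ± 15.4 and 81.7 ± 23.1 for the 6 catalytic subunits. KDM5B alone supplied 26.9 ± 11.6 and 74.3 ± 12.8 TPM of the demethylase sum.

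SMYD2 differed far more than any other member. It encodes a SET and MYND domain methyltransferase that acts on H3K4 and H3K36 and on proteins outside chromatin such as p53, and lies at chr1:214281102-214337131 on the plus strand. Its level was 4.07, 3.58 and 3.15 CPM with the DMSO label and 38.2, 45.1 and 49.7 CPM with the MI-503 label. The rise was 12.3-fold (95% interval 8.90 to 17.0, log2 fold change 3.62, SE 0.21, adjusted p = 4.59e-07 by edgeR), and most of it lay in the reference transcript SMYD2-201 at 3.48, 2.56 and 1.67 TPM and at 21.1, 31.6 and 31.3 TPM (adjusted p = 0.00124). Its relative SMYD3 ranged from 17.0 to 25.3 CPM and from 17.3 to 20.8 CPM and did not pass (log2 fold change −0.23, 95% interval −0.69 to 0.23). In TPM, SMYD2 was 0.139, 0.101 and 0.118 of SMYD3 with the DMSO label and 1.43, 1.35 and 1.66 of it with the MI-503 label, so the order of the pair was opposite in the sets of libraries (exact permutation p = 0.1).

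Of the remaining methyltransferases, SETD7 and KMT2E were lower and 3 genes with SMYD3 did not pass. SETD7, which adds a single methyl group to H3K4 and to many other proteins, was at 341.1, 250.3 and 228.1 CPM and at 157.5, 162.4 and 143.7 CPM (log2 fold change −0.82, SE 0.18, adjusted p = 0.00252 by edgeR). KMT2E, also called MLL5, has a SET domain without known activity on H3K4 and was at 89.9, 68.7 and 74.8 CPM and at 54.1, 48.6 and 43.7 CPM. It fell by 0.67 on the log2 scale (adjusted p = 0.00525 by edgeR), but the log2 fold change was −0.33 (adjusted p = 0.356) when protein-coding transcripts alone were counted. The part left out by that count is mainly KMT2E-201, annotated as a nonsense-mediated decay target, which was at 15.8, 11.2 and 10.8 TPM and at 6.89, 7.29 and 5.93 TPM and held 46.6% and 42.0% of the gene's TPM. ASH1L, which methylates H3K36 and belongs to the Trithorax group, was at 134.1, 83.0 and 68.2 CPM and at 144, 102 and 97.6 CPM (log2 fold change 0.27, adjusted p = 0.386), and without DMSO replicate 1 it passed (0.60, adjusted p = 0.0317). DOT1L, the H3K79 methyltransferase recruited by MLL1 fusion proteins, ranged from 130.5 to 210.5 CPM and from 109.2 to 145.8 CPM (log2 fold change −0.38, adjusted p = 0.158).

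Across the members, 146 of 355 annotated transcripts were tested, of which 12 (8.22%) were higher and 14 (9.59%) were lower, below the 13.9% and 14.1% of all transcripts tested. All 12 that were higher belong to members that were higher, while 8 of the 14 that were lower belong to members that were lower and 6 to members that did not pass. KDM6A had 4 lower transcripts, led by the coding transcript KDM6A-224 at 24.3, 13.9 and 9.60 TPM and then 4.03, 3.30 and 6.26 TPM (log2 fold change −1.82, adjusted p = 0.0141 by edgeR). The reference transcript KDM6B-202 was lower (14.5, 7.38 and 7.45 TPM and then 3.84, 2.79 and 2.20 TPM, adjusted p = 0.00827) although the gene did not pass, and PSIP1, CXXC1 and HCFC1 likewise held 1 lower transcript each. ASH1L-212, a coding transcript, was at 0.875, 3.02 and 1.64 TPM with the DMSO label and was listed at 0 in every library labelled MI-503 (adjusted p = 0.00616), while the level of the whole gene overlapped between the labels. In KDM5B the nonsense-mediated decay transcript KDM5B-236 rose from 2.15, 2.77 and 1.85 TPM to 5.82, 20.1 and 12.6 TPM (adjusted p = 0.00896).

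Many of these mRNAs are very long, and genes with long transcripts deviated together within a library. Over the 623 genes with an effective length of at least 6000 bases, the median log2 deviation from the mean of the label was 0.28, −0.12 and −0.17 in the DMSO replicates and 0.16, −0.09 and −0.06 in the MI-503 replicates, while over 11261 shorter genes it stayed between −0.03 and 0.02. Among the 13 members of that length, 10 had their highest DMSO value in replicate 1, 11 had their highest MI-503 value in replicate 1, and 8 did so in both. Of the 20 shorter members, 9, 9 and 3 did so. The median SD of log2 CPM within a label was 0.42 and 0.31 for the long members and 0.20 and 0.16 for the others. Of the 13 long members, 4 passed the test (KMT2C, SETD1B, NCOA6 and SETD7) and 9 did not, and of the 20 shorter members 11 passed, beside 62.9% of all genes tested. The shares that passed among all long and all shorter genes were not counted, so no difference by length can be read from these counts. With offsets for the average effective length, HCFC1 passed (adjusted p = 0.0484 by edgeR) and NCOA6 did not (adjusted p = 0.0778), so that 4 of the 13 passed again. With offsets that removed each library's length trend, HCFC1 (adjusted p = 0.0320) and KDM6B (adjusted p = 0.0409) passed as lower beside the 4, and PSIP1 among the shorter members (adjusted p = 0.0407), which raised the count of lower members from 6 to 9.

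The members were also set beside their chromosomal neighbours, the other tested genes within 2 Mb. For 13 of the 15 called members the median log2 fold change of the neighbours had the same sign as the member, and 11 of the 15 exceeded that median in size. Over all 33 members the signs were the same for 24. The sets of neighbours held 4 to 149 genes. Agreement in sign was not counted over all genes tested, so whether the members differ from other genes in this respect cannot be told. KMT2C and PAXIP1, both on the minus strand of chromosome 7, have lower coordinates 2.81 Mb apart. Their neighbours had medians of −1.34 (33 genes) and −1.41 (13 genes), next to −0.95 and −1.33 for the genes themselves. The windows of these genes overlap, so the medians are not separate observations. KDM1B, at 0.72, lay below its neighbours' median of 2.24 (18 genes). SMYD2, KDM5B and RBBP5, all on chromosome 1, had neighbours' medians of 0.63, 0.61 and 0.70, and SMYD2 exceeded its own by far. MEN1 at 1.27 stood beside a median of 0.65 over 131 genes. HCFC2 (neighbours −0.44) and KDM6A (neighbours 0.34) went against their neighbours. These are descriptions from the same 6 libraries, and the part of the region in each difference was not tested.

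**Figure D5:**
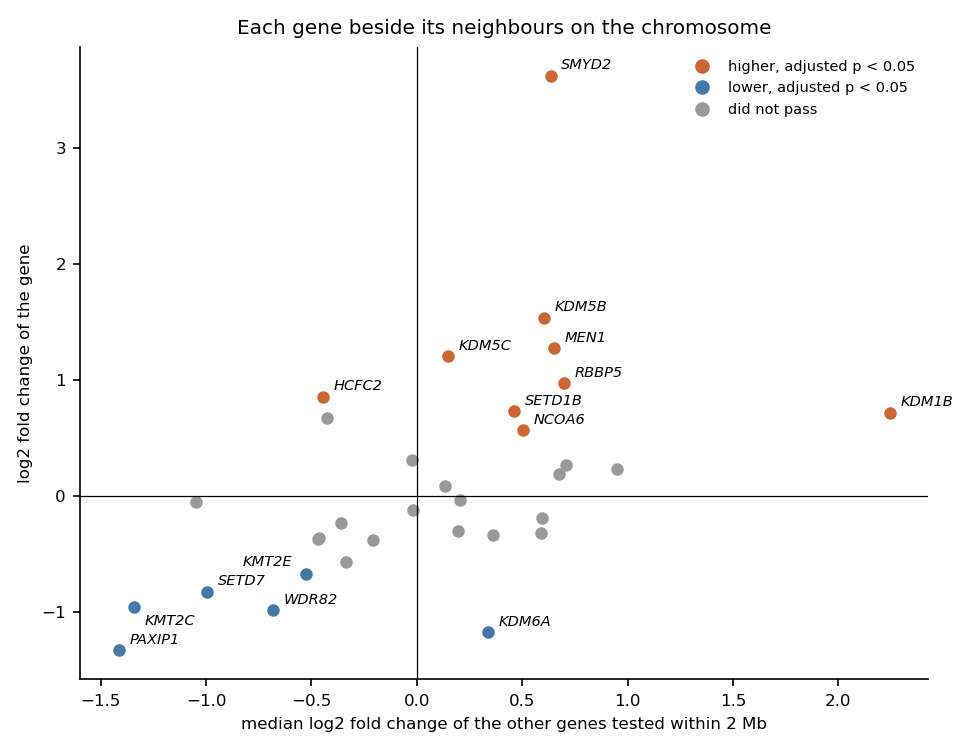
Log2 fold change of each of the 33 genes (vertical) against the median log2 fold change of the other tested genes within 2 Mb (horizontal), with the colour giving the call. Of 15 called genes 13 lie in the quadrants of equal sign, with HCFC2 and KDM6A outside them and SMYD2 at 3.62 far above its neighbours' median of 0.63.

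A further 4 groups of genes that work with these enzymes were counted in the same fit, in which 31.7% of all genes were higher and 31.2% lower. Of 18 genes for MLL1 processing, MLL fusion partners and transcription elongation, 3 rose (16.7%), 6 fell (33.3%) and 9 missed the threshold, with a median log2 fold change of −0.02. MLLT1 (ENL), a reader of acetylated histones and a frequent MLL1 fusion partner, was at 256.3, 284.6 and 313.5 CPM and at 118.9, 101.6 and 118.3 CPM and fell without overlap (log2 fold change −1.33, adjusted p = 4.2e-05 by edgeR). ELL3 (1.42) and AFF3 (1.35), both linked to elongation, rose. Of 18 readers of H3K4 methylation, 7 rose (38.9%), 6 fell (33.3%) and 5 did not pass (median 0.04). PYGO1, a Wnt pathway reader, fell with a log2 fold change of −2.86, from 14.5 to 19.6 CPM down to 1.56 to 2.82 CPM, while its paralog PYGO2 (0.98) and the TFIID subunit TAF3 (1.76) rose.

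Of the 16 partners of LSD1 and KDM5, 11 were higher (68.8%, beside 31.7% of all genes), 3 were lower (18.8%, beside 31.2%) and 2 did not pass, with a median log2 fold change of 0.93 against −0.004 over all genes tested. RCOR1, RCOR2 and RCOR3, the CoREST scaffolds of LSD1, were all higher, as was ZMYM3 (1.90). The deacetylases of the same complex, HDAC1 and HDAC2, were lower. HDAC2 was at 206.2, 211.6 and 200.2 CPM with the DMSO label and at 57.5, 77.9 and 74.6 CPM with the MI-503 label, a fall without overlap (log2 fold change −1.56, adjusted p = 2.23e-05 by edgeR). Of 20 other SET domain methyltransferases tested of 21, 6 rose (30%), 4 fell (20%) and 10 missed the threshold (median 0.15), with falls of SETMAR (−2.06) and SETD6 (−1.74) and a rise of the H3K9 methyltransferase SUV39H1 (1.50).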

How the data were processed

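By the study's account, T47D cells were treated for 24 hours with DMSO or 4 µmol/L MI-503. The authors quantified transcripts with salmon (Illumina DRAGEN). The authors deposited salmon's estimated counts per transcript, without normalization, and TPM, which salmon scales by effective length within each library. The submitters' processing notes name GRCh38.p13 and hg38 (salmon version and annotation release not given in the sources used here). GENCODE release 44 placed 229321 of 232117 transcripts (98.8%) in genes, and estimated counts were summed and rounded. TMM factors were 0.934 to 1.05, and mitochondrial genes took 1.38% to 7.18% of reads.

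The labels were compared with edgeR 4.0.16 (quasi-likelihood test, filterByExpr, 16442 genes, Benjamini-Hochberg) in R 4.3.3, with DESeq2 1.42.0, which the study used, as an alternative. A call is an adjusted p under 0.05, with the study's log2 fold change over 2 counted separately. CPM are TMM-scaled, and fold changes come from the fit. Intervals are 95% intervals computed from the fold change and its SE, which was derived from the test statistic of the fit. They are not adjusted for the number of genes tested. The log2 intervals of KMT2B (0.001 to 1.339), PSIP1 (−0.744 to −0.002) and KDM1A (−0.638 to −0.004) thus exclude 0, although these members did not pass. P-values measure the spread between 3 libraries per label. On simulated counts over 15721 genes, 44.9% of genes changed by log2 1 and 100% of those changed by log2 3 were recovered. There, 8 unchanged genes (0.0515%) were called. The simulation changed only a small part of the genes and gave all of them the same dispersion (spread between libraries). In these data 62.9% of genes were called, so the shares recovered do not carry over to the reported fit. The members and lists were chosen with earlier results of these data known. Values per library are given for KMT2A, MEN1, members that passed and members whose call changed under an alternative, neighbours are tested genes within 2 Mb, and of each list up to 3 genes with the smallest adjusted p are named. Some genes that this rule or the marker lists take are not reported here. HDAC1, the RCOR genes, and single transcripts of members other than KMT2A and MEN1 were named after their values were seen. The 15 alternatives covered scaling, low-count filters, DESeq2, the replicate block, transcript length, protein-coding transcripts and leaving out each library.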

Additional observations from a re-analysis of the deposited data

How the results depend on the processing

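Of the 15 called members, 13 kept direction and call under all 15 alternatives, the exceptions being NCOA6, also lost under upper-quartile scaling (adjusted p = 0.0642) and average-length offsets (adjusted p = 0.0778), and KMT2E. Higher members numbered 8 to 11 over the alternatives. Lower members numbered 6 in the reported fit, 10 under upper-quartile scaling, which moved the median log2 fold change of all genes to −0.10 and added calls of PSIP1, HCFC1, PAGR1 and KDM1A, and 6 to 7 when a library was left out. Members lower by a log2 fold change over 2 in size numbered 1 (PAXIP1) in place of 0 with protein-coding transcripts alone. Of 495 comparisons of a member with an alternative, 453 kept the direction and side of the threshold, 7 lost the call, 21 gained it and 14 changed sign, all in members that did not pass. The sign changes were SETD1A under upper-quartile scaling (−0.013), DPY30 with length-trend offsets (0.124), BOD1L1 without a filter (0.011) and with average-length offsets (0.112), and SMYD3 with average-length offsets (0.061). Leaving out single libraries gave −0.016 (without MI-503 replicate 1) to 0.593 for KMT2A, −0.047 (without MI-503 replicate 1) to 0.451 for KMT2D, −0.014 (without DMSO replicate 2) to 0.212 for SETD1A, −0.255 to 0.057 (without DMSO replicate 3) for WDR5, −0.218 to 0.093 (without DMSO replicate 2, also above 0 without MI-503 replicate 1) for DPY30, −0.262 to 0.280 (without DMSO replicate 1, also above 0 without MI-503 replicate 2 or 3) for BOD1L1 and −0.782 to 0.426 (without DMSO replicate 1) for the ratio of KMT2A to KMT2B. The cause was not tested.

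Deviations of same-numbered libraries correlated at −0.06, 0.13 and −0.08 across genes, so no pairing by replicate number was seen over the genes as a whole. This does not settle the matter for the long members. Of those 13, 8 had their highest value in replicate 1 of both labels, as had 3 of the 20 shorter members. With the replicate block, 9 members were higher and 8 lower, HCFC1 (adjusted p = 0.0478) and KDM6B (adjusted p = 0.0164) being added, and 5071 genes were higher and 4913 lower compared with 5208 and 5130 without it. The 69 to 7542 reads behind a member value leave the spread between libraries, rather than counting, as the limit for most members.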
